A study of Mus musculus with 9 samples.

Results

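The CD31+CD45+ cells of injured muscle were set beside the injured FAPs (fibro-adipogenic progenitors) of the same tissue, treatment and day. Members were chosen by their labels, which gave 1 library of CD31+CD45+ cells and 3 libraries of injured FAPs, 4 of the 9 libraries of the series. Both groups came from the quadriceps muscle of C57Bl/6 mice on day 1 after a glycerol injection, an injury that destroys myofibres. The mice of the injury model were C57Bl/6 J males of 8 to 12 weeks. The reporting summary of the paper describes the FAP triplicates as made from pooled cells of 3 animals. Whether the 3 libraries came from 1 pool is not stated, so their spread may not cover variation between animals. FAPs had been depleted of cells bearing CD45 and CD31 and then selected on Sca-1. How the CD31+CD45+ cells were collected is not described, and the label does not say whether a cell carried both markers or either of them. With 1 library, the CD31+CD45+ group has no replicate check, and every comparison with it is given as a description, with a count test as an alternative only.

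CD31, the product of Pecam1, is a cell adhesion molecule of endothelial cells, and CD45, the product of Ptprc, is a phosphatase of the surface of leukocytes. Endothelial cells line blood and lymph vessels, hold together by VE-cadherin, answer to vascular endothelial growth factors and give leukocytes a place to roll, stick and cross into injured tissue. FAPs are the PDGFRα-positive mesenchymal cells of skeletal muscle, which lay down matrix and release signals for muscle stem cells and for incoming leukocytes after injury.

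Values are normalised read counts as deposited, and where 3 values stand against 1, the 3 are injured FAP replicates 1 to 3 in order and the 1 is the CD31+CD45+ library. The endothelial markers were all high in the CD31+CD45+ library, while Ptprc was present at a much lower level per length. Pecam1 had values of 192, 269 and 121 in the 3 injured FAP libraries and 45323 in the CD31+CD45+ library, a 233-fold difference. Cdh5, which encodes VE-cadherin of the endothelial junction, stood at 649, 663 and 537 in injured FAPs and at 98652 in CD31+CD45+ cells, 160.0-fold higher. For Kdr, the main signalling receptor for VEGF-A, the values were 103, 98.4 and 80.8 against 31407. Flt1, the VEGF receptor that also exists as a soluble decoy, had 349, 356 and 321 in injured FAPs and 48349 in CD31+CD45+ cells. Ptprc was at 11.8, 55.8 and 9.92 in injured FAPs and at 797 in the CD31+CD45+ library, 30.9-fold higher and 73.5-fold without injured FAP replicate 2. Per kilobase of exon, the CD31+CD45+ library held 7277 of Pecam1 and 43.5 of Ptprc. In bulk RNA, fewer cells of a type and less RNA per cell cannot be told apart. The 95% interval of the Ptprc value in CD31+CD45+ cells ran from 729 to 869.7, and such intervals cover counting error only, since reads amplified by PCR without molecular identifiers are not independent molecules.

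The markers of FAPs gave a mixed picture. Pdgfra, the receptor that defines FAPs, had values of 23649, 25268 and 23236 in injured FAPs and 119 in CD31+CD45+ cells, 202-fold lower. Pdpn, which encodes podoplanin, read 19613, 19007 and 18419 in injured FAPs and 149 in CD31+CD45+ cells. Thy1, a surface glycoprotein of stromal cells, was at 9973, 9284 and 8589.7 against 1566, 5.93-fold lower. Ly6a, which encodes Sca-1, reached 24309, 21308 and 24855 in injured FAPs and 17672 in CD31+CD45+ cells, and Cd34, a sialomucin of progenitors and endothelium, reached 11933, 10736 and 11553 against 17085. Neither Ly6a nor Cd34 passed 4-fold, so both were carried on each side of the comparison. Of the 7 sorting and cytometry markers, 2 were higher in CD31+CD45+ cells and 3 lower, with a median log2 ratio of −0.41.

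**Figure D1:**
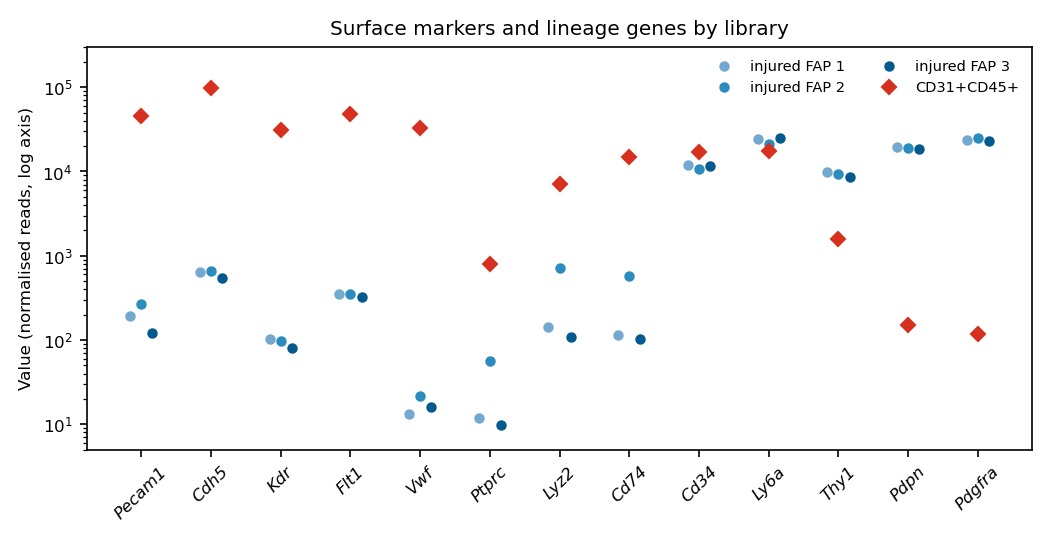
Values of surface markers and lineage genes in the 3 injured FAP libraries (blue points) and the CD31+CD45+ library (red diamonds), in normalised reads on a log axis. Pecam1 stood at 45323 in CD31+CD45+ cells against 121 to 269 in injured FAPs, and Pdgfra showed the opposite order with 119 against at least 23236.

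Genes were ranked by the ratio of the CD31+CD45+ value to the injured FAP mean, with each value raised to a floor of 3 reads and a value of at least 100 required on 1 side. Of the 26214 genes in the table, 18594 had a read in these 4 libraries and 11636 reached that minimum. Of these, 1370 reached it only in the CD31+CD45+ library and so could not be lower, and 965 only in injured FAPs and so could not be higher. The first group held 15 of the 24 pan-endothelial genes and 12 of the 15 pan-leukocyte genes, and the second 12 of the 18 cell division genes. Of the genes counted, the first group also held 7 of 14 capillary, 4 of 6 lymphatic, 4 of 7 Schwann cell and 8 of 16 leukocyte adhesion genes. The CD31+CD45+ library was at least 4-fold higher and outside the injured FAP range for 1593 genes (13.7%) and at least 4-fold lower for 1293 genes (11.1%), so 24.8% of the genes counted were past the fold in either direction. The median log2 ratio over all genes counted was 0.02, with quartiles of −0.90 and 0.98. Under scaling by TMM factors fewer genes were higher than lower, 1370 against 1563. That scaling moved the median by −0.29, and it turned negative there and under a common 75th percentile. Differences of at least 10-fold were seen for 913 genes higher and 607 lower, and of at least 100-fold for 197 higher and 32 lower. The genes past 4-fold higher held 27.7% of all values in the CD31+CD45+ library and 2.16% to 2.17% in the injured FAP libraries. Genes past 4-fold lower held 2.44% of the values in CD31+CD45+ cells and 27.3% to 28.4% in injured FAPs. When each injured FAP library was set against the mean of the other injured FAPs in the same way, replicate 1 gave 0 genes higher and 2 lower, replicate 2 gave 35 higher and 0 lower, and replicate 3 gave 0 higher and 4 lower.

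At the edge of the fold on the higher side, Abcc9 lay just outside with a CD31+CD45+ value of 2677 and injured FAP values of 607, 659.5 and 742. On the lower side, Neo1 lay just inside at 949.5 against 3960.0, 3788 and 3658, and Pbdc1 just outside at 187 against 688, 709.9 and 843. The value minimum admitted E330013P04Rik, whose injured FAP mean was 100.1, and left out Haspin, whose mean was 98.9.

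**Figure D2:**
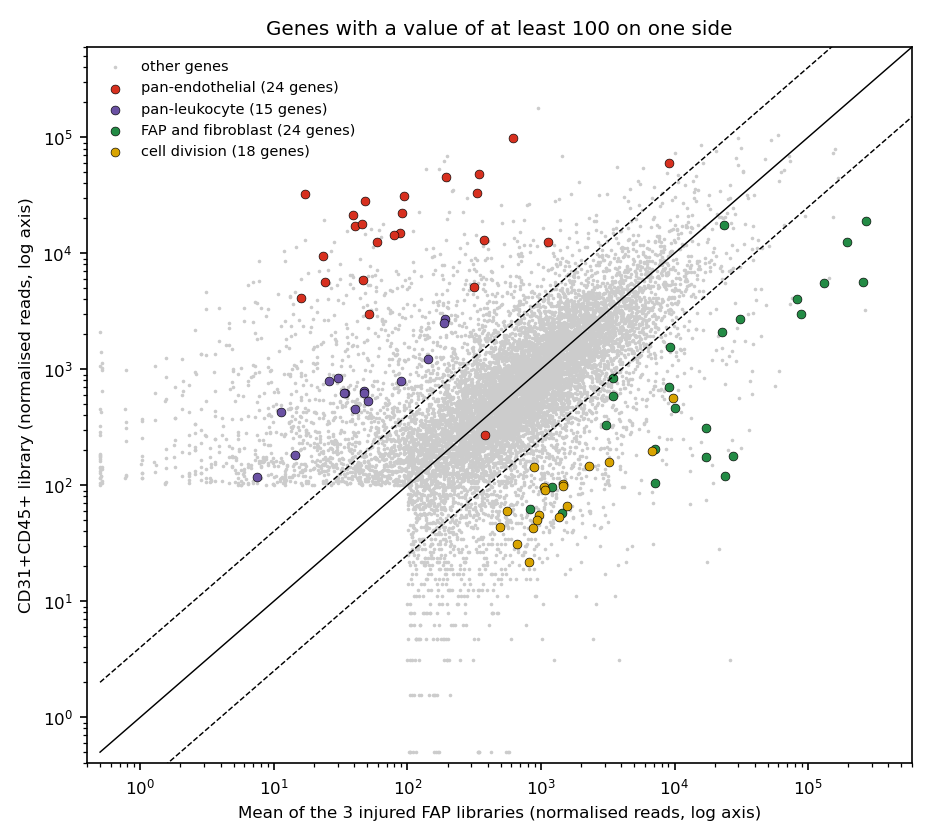
Each point is 1 of the 11636 genes with a value of at least 100 on 1 side, plotted by the mean of the 3 injured FAP libraries and by the CD31+CD45+ library, in normalised reads on log axes, with dashed lines at 4-fold. Of the pan-endothelial genes 23 of 24 lie above the upper line, all 15 pan-leukocyte genes lie above it too, and 23 of 24 FAP genes and all 18 cell division genes lie below the lower line.

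At the high end of the ranking, Vwf, which encodes von Willebrand factor, the carrier of factor VIII and a bridge for platelets, had values of 13.3, 21.7 and 16.02 in injured FAPs and 32362 in CD31+CD45+ cells, 1902-fold higher. Aqp7, an aquaporin that passes glycerol as well as water, was at 3.14, 4.65 and 1.53 in injured FAPs and at 4661 in CD31+CD45+ cells, a ratio of 1388-fold with the floor and 1506-fold without it (95% counting interval 861 to 2917). Timp4, a tissue inhibitor of metalloproteinases, read 10.98, 7.75 and 4.58 against 8638, 1112-fold higher. With the floor applied, these 3 genes were past 1000-fold on the higher side, but without injured FAP replicate 2 it was 8 genes, and Slc28a2 then had the largest ratio at 2294-fold. Cytl1, a small secreted protein, had 0 reads in every injured FAP library and a value of 2112 in CD31+CD45+ cells, at least 909.6-fold higher against the floor of 3 reads per library. Among the next genes by ratio, Cd300lg, a receptor of capillary and venular endothelium, stood at 25.1, 33.3 and 12.97 in injured FAPs and 19420 in CD31+CD45+ cells. Gpihbp1, the protein that carries lipoprotein lipase across capillary endothelium, had 13.3, 23.2 and 7.63 against 11251. Ccm2l, a partner of the cerebral cavernous malformation pathway, was at 11.8, 9.30 and 2.29 against 5797. Depp1, Ushbp1, Zfp366, Dipk2b, Alas2, Slc28a2, C1qtnf9 and Sema3g were also among the 15 largest ratios, with the floor applied, between 705-fold and 918-fold.

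By value, the genes past the fold were led by Aqp1, the water channel of capillary endothelium and red cells, with 180438 in CD31+CD45+ cells and 1022, 930.0 and 915 in injured FAPs. Per kilobase of exon it was also the most abundant gene of the CD31+CD45+ library among those with a known exon length, at 68686 against 364 for the injured FAP mean. Cav1, which encodes the coat protein of caveolae, reached 85879 against 15946, 14556 and 16468, 5.49-fold higher. Epas1, which encodes the hypoxia-inducible factor HIF-2α of endothelium, reached 69053 against 1619, 1519 and 1193.

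The endothelial lists were high in the CD31+CD45+ library across most of their genes. Of the 24 pan-endothelial genes, 24 were counted, 23 were past 4-fold higher and 0 lower, and the median log2 ratio was 7.62 beside 0.02 over all genes counted. The list had median values of 70.2, 101 and 66.7 in the 3 injured FAP libraries and 15938 in the CD31+CD45+ library. It took 0.0675, 0.0701 and 0.0585% of all values in injured FAPs and 2.70% in CD31+CD45+ cells. Tie1, an orphan receptor that partners with Tie2, had values of 54.9, 53.5 and 35.8 against 27972. Sox18, a transcription factor of vascular and lymphatic development, had 47.9, 44.2 and 25.9 against 21167. Eng, the co-receptor endoglin for BMP9 signals, was an exception in size only, since injured FAPs also held 9634, 9739 and 8117 and CD31+CD45+ cells 59418, 6.48-fold higher. The 1 gene that did not pass the fold was Tmem100, at 384, 397 and 366 in injured FAPs and 269.9 in CD31+CD45+ cells, a gene named after its values were seen.

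Capillary genes gave a median ratio of the same order. All 14 were counted, 12 were higher and 0 lower, with a median log2 ratio of 8.0, and 8 of the 14 also stood in another list. Their median values were 78.9, 97.3 and 74.4 in injured FAPs and 8362 in CD31+CD45+ cells. Cd36, the fatty acid translocase, had values of 137, 243 and 135 in injured FAPs and 52764 in CD31+CD45+ cells, 308-fold higher. Fabp4, a fatty acid binding protein of capillaries and fat cells, had 188, 243 and 172 against 42779. Lpl, which encodes lipoprotein lipase, was abundant on each side with 3918, 3718 and 3698 against 12224 and did not pass the fold.

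Arterial genes were higher in CD31+CD45+ cells for 13 of 13 genes counted, with a smaller median log2 ratio of 4.53. The minimum was reached on the CD31+CD45+ side only by 6 of the 13, which could not be lower. The list medians were 137, 157 and 144 in injured FAPs and 5232 in CD31+CD45+ cells. Hey1, a Notch target that sets arterial identity, read 39.2, 48.05 and 61.8 against 3589, and Sema3g, a semaphorin of arterial endothelium, read 14.9, 13.9 and 7.63 against 8577. The venous and activated list was split, with 6 of 11 genes higher and 0 lower and a median log2 ratio of 2.72. Selp, the P-selectin on which leukocytes roll, had values of 149, 196 and 129.7 in injured FAPs and 9514 in CD31+CD45+ cells, 60.1-fold higher. Ephb4, the ephrin receptor of veins, had 783, 670.4 and 674 against 8516. Il1r1, the signalling receptor for interleukin 1, was instead at 8724, 8749.6 and 8406 in injured FAPs and at 2335 in CD31+CD45+ cells, 3.69-fold lower and 4.44-fold under TMM scaling. The list therefore held genes that injured FAPs carried at high levels as well.

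Lymphatic genes were counted for 6 of 7, with 4 higher and 1 lower and a median log2 ratio of 4.39. Flt4, the receptor for VEGF-C, had 31.4, 25.6 and 20.6 in injured FAPs and 5523 in CD31+CD45+ cells. Mmrn1, a multimerin of platelets and endothelium, had 2 reads over the injured FAP libraries and a value of 1122 in CD31+CD45+ cells, a ratio of 483-fold with the floor and 2175-fold without it (95% counting interval 599.8 to 17992). Pdpn, a lymphatic marker that FAPs also carry, was the gene that ran the other way, and it made the sum of the list larger in injured FAPs.

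**Figure D3:**
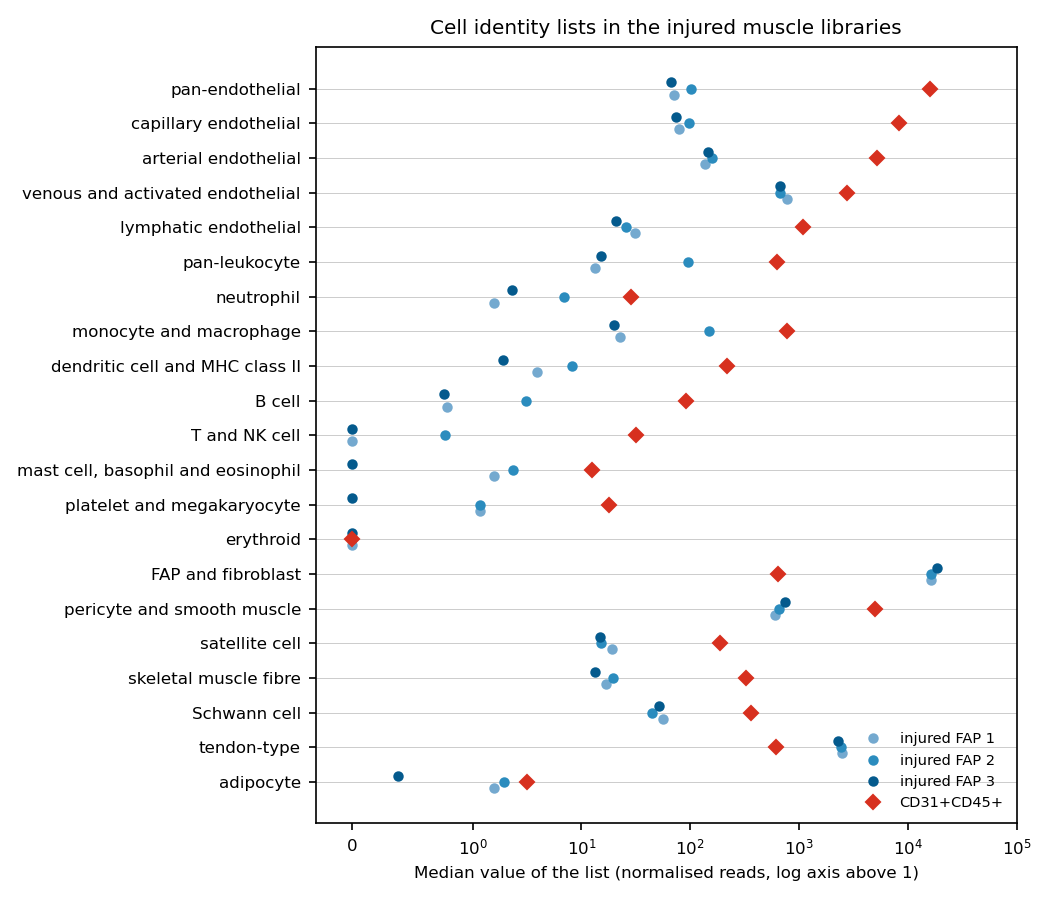
Median value of each cell identity list in the 3 injured FAP libraries (blue points) and the CD31+CD45+ library (red diamonds), in normalised reads on an axis that is linear below 1 and logarithmic above. The pan-endothelial median was 15938 in CD31+CD45+ cells against 66.7 to 101.1 in injured FAPs, and injured FAP replicate 2 stood above the other injured FAP libraries in the pan-leukocyte list with 95.3.

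Promoter sequences are shown for a pair of endothelial genes and a pair of macrophage genes with high values in the CD31+CD45+ library, since ETS family factors act in both lineages. The window ran from 250 bases before to 50 bases after the start of the gene, taken from RefSeq on build GRCm38.p6, and the letters searched were AGGAAGT and CCGGAAGT and their reverse strands, ACTTCCT and ACTTCCGG. Matches are in capitals. Only windows with a match were eligible to be shown, and among the genes with a promoter 3 of 11 pan-endothelial and 8 of 13 monocyte and macrophage genes held a match. These shares are per gene, and a gene can have several promoters. Flt1 lies on the minus strand at chr5:147725962-147726261, Eng on the plus strand at chr2:32646345-32646644, Lyz2 on the minus strand at chr10:117282223-117282522 and C1qb on the minus strand at chr4:136886151-136886450.
Flt1: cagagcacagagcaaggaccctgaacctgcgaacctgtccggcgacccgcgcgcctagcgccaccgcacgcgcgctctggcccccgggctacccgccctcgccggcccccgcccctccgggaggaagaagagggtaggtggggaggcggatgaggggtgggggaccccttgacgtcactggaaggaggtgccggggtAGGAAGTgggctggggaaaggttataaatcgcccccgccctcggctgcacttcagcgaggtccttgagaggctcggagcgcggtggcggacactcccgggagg
Eng: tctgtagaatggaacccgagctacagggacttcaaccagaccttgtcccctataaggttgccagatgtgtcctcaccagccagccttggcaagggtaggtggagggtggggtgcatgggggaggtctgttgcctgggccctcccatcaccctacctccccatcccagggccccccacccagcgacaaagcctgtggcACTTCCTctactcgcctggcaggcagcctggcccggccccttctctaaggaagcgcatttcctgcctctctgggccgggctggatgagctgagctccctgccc
Lyz2: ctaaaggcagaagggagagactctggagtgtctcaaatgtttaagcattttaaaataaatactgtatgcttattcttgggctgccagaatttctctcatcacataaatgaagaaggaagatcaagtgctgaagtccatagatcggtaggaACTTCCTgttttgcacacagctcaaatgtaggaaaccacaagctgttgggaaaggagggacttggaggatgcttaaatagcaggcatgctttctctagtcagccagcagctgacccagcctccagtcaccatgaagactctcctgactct
C1qb: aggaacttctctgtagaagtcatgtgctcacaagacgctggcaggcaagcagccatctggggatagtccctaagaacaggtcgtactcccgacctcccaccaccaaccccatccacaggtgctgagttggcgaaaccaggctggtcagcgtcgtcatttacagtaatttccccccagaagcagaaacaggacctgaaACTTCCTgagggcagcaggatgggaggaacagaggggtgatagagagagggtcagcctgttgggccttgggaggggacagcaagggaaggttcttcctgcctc
Of all 32851 promoters of this length, 9.35% held AGGAAGT, 3.89% held CCGGAAGT and 12.9% held either. Of the 11944 promoters of the genes counted, 15.7% held either. In the other endothelial lists, the shares per promoter were 33.3% for capillary, 20% for venous and activated, and 0% for arterial and lymphatic genes. In the other leukocyte lists they were 46.2% for pan-leukocyte, 40% for neutrophil, and 33.3% for B cell and for T and NK cell genes. They were 0% for the dendritic cell and mast cell lists. A match is a description of letters and not a site that a factor was seen to bind. Only 11 of 24 pan-endothelial genes and 13 of 18 monocyte and macrophage genes had a promoter in the table. Promoters were found for 1213 of the 1593 genes past the fold higher and 982 of the 1293 lower, so the shares of these groups were not compared.

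Leukocyte transcripts were present in the CD31+CD45+ library, and they included genes of monocytes, macrophages and antigen presentation. All 15 pan-leukocyte genes were counted and 15 were higher, with a median log2 ratio of 3.78. The list had median values of 13.3, 95.3 and 15.3 in the 3 injured FAP libraries and 629 in CD31+CD45+ cells. Injured FAP replicate 2 stood above the other injured FAP libraries here, and without it the median log2 ratio was 5.16. Summed, the list reached 390.0, 2100.2 and 378 in injured FAPs and 13128 in CD31+CD45+ cells. Per kilobase of exon, the median of the list in the CD31+CD45+ library was 233, against 3674 for the pan-endothelial list. Laptm5, a lysosomal protein of blood cells, was its most abundant gene in CD31+CD45+ cells at 2699, with 87.1, 426 and 64.1 in injured FAPs. Spi1, which encodes the myeloid factor PU.1, had 11.8, 72.8 and 15.3 against 626.

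Of the 18 monocyte and macrophage genes, 15 were counted. Of these 15, 11 reached the minimum on the CD31+CD45+ side only and so could not be lower. Of the genes counted, 13 were higher, with a median log2 ratio of 4.14. Without injured FAP replicate 2, 14 were higher and the median was 5.81. Lyz2, the lysozyme of myeloid cells, had values of 142, 725 and 109 in injured FAPs and 7022 in CD31+CD45+ cells. Csf1r, the receptor for the macrophage growth factor CSF1, had 38.4, 164 and 25.9 against 3140.4, 41.2-fold higher and 97.6-fold without injured FAP replicate 2. The complement genes C1qb and C1qc, made by tissue macrophages, reached 2751 and 2652 in CD31+CD45+ cells. Ccr2, the receptor of inflammatory monocytes, had 9.42, 89.9 and 16.02 in injured FAPs and 370.4 in CD31+CD45+ cells, and Cx3cr1, the fractalkine receptor, had 3.92, 16.3 and 11.4 against 443. In Lyz2, Csf1r and Ccr2 injured FAP replicate 2 was the highest of its group, and the part of leukocyte RNA in that library was not tested.

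Genes of dendritic cells and MHC class II were counted for 9 of 12. Of these 9, 8 reached the minimum on the CD31+CD45+ side only and so could not be lower. All 9 were higher, with a median log2 ratio of 5.80 and 6.72 without injured FAP replicate 2. Cd74, the invariant chain that guards the class II groove, had 115, 575 and 103 in injured FAPs and 14743 in CD31+CD45+ cells, 55.8-fold higher and 135-fold without injured FAP replicate 2. H2-Aa, H2-Ab1 and H2-Eb1, which encode class II chains, reached 5243, 5009.6 and 2872. Ccr7, the receptor that guides dendritic cells to lymph nodes, stood at 152. Per kilobase of exon, Cd74 stood at 8781 and H2-Ab1 at 1951 in the CD31+CD45+ library, above the pan-leukocyte median of 233.

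Neutrophil genes were mostly under the minimum of 100 in every library. Only 5 of 15 were counted, 2 higher and 1 lower, with a median log2 ratio of 1.21, or 3.26 with a minimum of 20 in place of 100, and 4 of the 15 were at 0 in CD31+CD45+ cells. Csf3r, the receptor for granulocyte colony stimulating factor, had values of 8.63, 70.5 and 10.7 in injured FAPs and 471 in CD31+CD45+ cells. Lcn2, an iron-trapping lipocalin that stromal cells also make under stress, ran the other way with 723, 933 and 559.8 against 168, and without injured FAP replicate 2 the difference was 3.82-fold and within the fold. Cxcr2, the chemokine receptor of neutrophils, was at 23.5 in CD31+CD45+ cells.

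Lymphocyte and granule cell genes were mostly under the minimum too. The table held 7 of the 9 B cell genes, of which 3 were counted and 2 were higher. All 3 reached the minimum on the CD31+CD45+ side only and so could not be lower. Cd22 was 37.6-fold higher, and 31.3-fold under TMM scaling, where it was no longer among the genes called higher. Cd79a of the B cell receptor stood at 22.8, 17.8 and 25.9 in injured FAPs and 249.5 in CD31+CD45+ cells. None of the 16 T and NK cell genes reached the minimum of 100, and the largest, the granzyme gene Gzma, was at 80.04 in CD31+CD45+ cells and at 0 in every injured FAP library. Among mast cell, basophil and eosinophil genes 5 of 11 were counted and 5 were higher, but all 5 reached the minimum only in the CD31+CD45+ library and so could not be lower, with a median log2 ratio of 5.09 and 5.78 without injured FAP replicate 2. Their largest values were 293 for Kit, the stem cell factor receptor, and 210.3 for the tryptase gene Tpsb2. Platelet genes were counted for 2 of 10 with 1 higher, and Pf4, the platelet chemokine, was at 33.7, 164 and 33.6 in injured FAPs and 461 in CD31+CD45+ cells. Of 8 erythroid genes only Alas2, the heme synthesis enzyme of red cells, was counted, with 7.85, 3.87 and 9.15 in injured FAPs and 5666 in CD31+CD45+ cells. In the CD31+CD45+ library 5 of the 8 genes were at 0.

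FAP genes were low in the CD31+CD45+ library. All 24 were counted, 0 were higher and 23 lower, with a median log2 ratio of −4.17. The gene that did not pass the fold was Ly6a, which encodes Sca-1, the marker on which FAPs were selected. The list had medians of 16444, 16159 and 18716 in injured FAPs and 640.3 in CD31+CD45+ cells, and it took 5.90, 6.21 and 5.83% of all values in injured FAPs and 0.379% in CD31+CD45+ cells. None of its genes was at 0, and the most abundant in CD31+CD45+ cells was Col1a1, a chain of type I collagen, at 18995 against 275672, 292925 and 244326. Gsn, which encodes the actin-severing gelsolin, had 143378, 119789 and 133908 in injured FAPs and 5569.9 in CD31+CD45+ cells. Cxcl14, a chemokine of stromal cells, had 27582, 31016 and 23458 against 177, 154-fold lower. Pdgfra and Cxcl14 fell much further than Col1a1, which was 14.3-fold lower. Whether RNA of FAPs entered the CD31+CD45+ library was not tested.

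At the low end of the ranking, Cxcl5, a chemokine that draws neutrophils, had values of 24537, 25243 and 28574 in injured FAPs and 2 reads in the CD31+CD45+ library, a ratio of 5547-fold with the floor and 8327-fold without it (95% counting interval 2305 to 68761). Mmp3, the metalloproteinase stromelysin, had 3900.3, 3902 and 3769 against 2 reads, a ratio of 819-fold with the floor and 1229-fold without it (95% counting interval 340.1 to 10146). Cxcl3, another neutrophil chemokine, had 2579.8, 2061 and 2713 against 3 reads, a ratio of 521-fold (95% counting interval 178 to 2526). All 3 genes were at or under the floor of 3 reads in CD31+CD45+ cells. Ptx3, the long pentraxin that binds microbes and matrix, read 18357, 17513 and 16854 in injured FAPs and 21.97 in CD31+CD45+ cells, 799.9-fold lower. Has1, a hyaluronan synthase, read 24495, 17848 and 22457 against 28.2. Its relative Has2 read 4405, 3715 and 4823 against 21.97. Both synthases were therefore carried by injured FAPs. Ccbe1, Bcat1, Ltbp2, Lif, Pdgfra, Serpina3n and Bmper also belonged to the 15 largest ratios on the lower side, between 186-fold and 327-fold. P4ha3, with 2 reads in the CD31+CD45+ library, had a ratio of 265-fold with the floor and 397-fold without it (95% counting interval 110.0 to 3283). Tubb3, with 3 reads there, had a ratio of 216-fold (95% counting interval 73.7 to 1046). By value, Prg4, the joint lubricant lubricin, was among the largest genes past the fold on the lower side, with 231493, 367236 and 207288 in injured FAPs and 3220.5 in CD31+CD45+ cells, and injured FAP replicate 2 was the highest library.

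All 13 fibrillar and fibril-associated collagens were counted and 13 were lower in CD31+CD45+ cells, with a median log2 ratio of −4.01. Col3a1, the collagen of reticular fibres, had 237506, 279893 and 249445 in injured FAPs and 5599.7 in CD31+CD45+ cells, 45.6-fold lower, and Col6a3 of microfibrillar collagen VI had 78349, 70318 and 69894 against 3629. Basement membrane genes were past the fold for 4 of 16, 2 higher and 2 lower, which is near the 24.8% of all genes counted, with a median log2 ratio of −0.29. Col4a1, a chain of the collagen IV network, had 56563, 51301 and 50202 in injured FAPs and 93877 in CD31+CD45+ cells, and Hspg2, which encodes perlecan, had 83446, 69422 and 66552 against 62248. Lama5, a laminin chain of mature vessel walls, differed most on the higher side with 126, 102 and 102 against 15675, 142-fold higher. Sparcl1, a matricellular protein of vessels, had 3526, 3541 and 4148 against 55754.

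Proteases and their inhibitors were divided between the groups. Of 17 metalloproteinase and TIMP genes 12 were counted, 3 higher and 6 lower, with a median log2 ratio of −2.06, and with a minimum of 20 in place of 100 this median was −0.54. Mmp2, the gelatinase of stromal cells, had 22258, 23559.6 and 22422 in injured FAPs and 1194 in CD31+CD45+ cells. Timp1, the inducible inhibitor, had 19237, 19715 and 19465 against 105, 185-fold lower. On the other side, the membrane-bound Mmp15 had 140.4, 146 and 129 against 10801. Timp3, the inhibitor that binds to matrix, had 8167, 7483 and 8478 against 33046, 4.11-fold higher, and it fell within the fold under TMM scaling at 3.42-fold, under the common 75th percentile at 3.90-fold and without injured FAP replicate 2 at 3.97-fold. The inhibitor genes thus divided, with Timp1 on the FAP side and Timp3 and Timp4 on the CD31+CD45+ side.

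VEGF receptors were carried by CD31+CD45+ cells, while the ligands were on each side. Of the 10 genes of the list 6 were higher and 1 lower, with a median log2 ratio of 2.29. Among ligands, Vegfa, the main growth factor of vessels, had values of 3276, 3030.2 and 3347 in injured FAPs and 811 in CD31+CD45+ cells, 3.97-fold lower and just short of the fold, which it passed without injured FAP replicate 2 at 4.08-fold, under the common 75th percentile at 4.18-fold and under TMM scaling at 4.77-fold. Vegfd, a ligand of Flt4, had 1641, 1507 and 1057 against 58.1, a log2 ratio of −4.59. Vegfc, the lymphatic growth factor, had 301, 325 and 309.7 against 2163, 6.93-fold higher. The ligands of Flt4 thus lay on opposite sides. Nrp1 and Nrp2, the neuropilin co-receptors, were present in both groups and higher in CD31+CD45+ cells, with 24445 against 4363, 4802 and 4766 for Nrp1 and 8194 against 1989.8, 1787 and 1660.4 for Nrp2, which fell within the fold under TMM scaling at 3.76-fold.

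The angiopoietin and Tie list was divided evenly, with 4 genes higher and 4 lower of 8 counted and a median log2 ratio of 0.68, or 4.72 with a minimum of 1000. Angpt1, the agonist of Tie2 made by cells around vessels, had 319, 336 and 362 in injured FAPs and 34.5 in CD31+CD45+ cells, 9.81-fold lower. Angpt2, the antagonist that endothelial cells store, had 61.2, 59.7 and 42.7 against 1089, 19.97-fold higher. Tek, which encodes Tie2, had 395, 367 and 365 against 13098. The agonist and the receptor were therefore on opposite sides. Ptprb, the phosphatase that damps Tie2, had 132, 164 and 121 against 53605, 386-fold higher.

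Apelin and endothelin genes were counted for 6 of 9, with 4 higher, 0 lower and a median log2 ratio of 2.66. Aplnr, the apelin receptor, had values of 25.9, 37.97 and 21.4 in injured FAPs and 12604 in CD31+CD45+ cells, while its ligand gene Apln was alike in both with 750.1, 989.7 and 685 against 711. Edn1, which encodes the vasoconstrictor endothelin 1, had 51.8, 39.5 and 49.6 against 1714, 36.5-fold higher. Its receptors differed, since Ednra had 571, 684 and 567 against 780.0 and Ednrb had 209, 284 and 214 against 1934.

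Notch genes were high in CD31+CD45+ cells from ligand to target. All 18 were counted, 14 were higher and 0 lower, with a median log2 ratio of 3.56. The minimum was reached on the CD31+CD45+ side only by 8 of the 18, which could not be lower. The ligand gene Dll4 had 18.8, 28.7 and 28.2 against 7116, 282-fold higher, and the ligand gene Jag2 had 21.97, 19.4 and 12.97 against 6711, 371-fold higher. Notch4, the receptor of endothelium, had 397, 422 and 367 against 9125. Notch2 alone of the receptors was higher in injured FAPs, at 4894, 4748 and 4659 against 1199, just short of the fold, which it passed without injured FAP replicate 3 at 4.02-fold, under the common 75th percentile at 4.19-fold and under TMM scaling at 4.78-fold. Among targets, Nrarp, a feedback inhibitor of the pathway, had 29.8, 37.2 and 37.4 against 4380.3, and Hes1, a repressor, had 676, 657 and 728 against 3847. Notch3, a receptor of mural cells, was also 5.76-fold higher.

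PDGF genes were divided, with Pdgfb and Pdgfd on the CD31+CD45+ side and Pdgfc, Pdgfra and Pdgfrl on the FAP side. Of the 7 genes 2 were higher and 3 lower, with a median log2 ratio of −1.02, which turned to 1.40 with a minimum of 1000. Pdgfb, the ligand by which endothelium recruits pericytes, had 20.4, 40.3 and 19.1 in injured FAPs and 10553 in CD31+CD45+ cells, 397-fold higher. Pdgfd, another ligand of PDGFRβ, had 123, 159.6 and 136 against 1981. Pdgfc, a ligand of PDGFRα, ran the other way with 225, 296 and 267 against 34.5. Pdgfrb, shared by FAPs and pericytes, had 10579.8, 9973 and 9723 against 4969, which is 2.03-fold lower and within the fold.

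Of 20 TGF-β and BMP genes 4 were higher and 3 lower, beside 24.8% of all genes counted past the fold, with a median log2 ratio of 0.59. Bmp6, a ligand made by endothelium, had 693, 593 and 636 against 5182, 8.09-fold higher. Id1, a target of BMP signals, had 208, 165 and 178 against 3702. Inhba, which encodes activin A subunits, stood at 2478, 2781 and 3722 in injured FAPs and 54.9 in CD31+CD45+ cells, 54.5-fold lower, and Bmpr1a, a type I BMP receptor, at 2959, 3099.9 and 3104 against 395. Acvrl1, which encodes the endothelial receptor ALK1, did not pass the fold, at 2726, 2877 and 2575 against 9418.

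**Figure D4:**
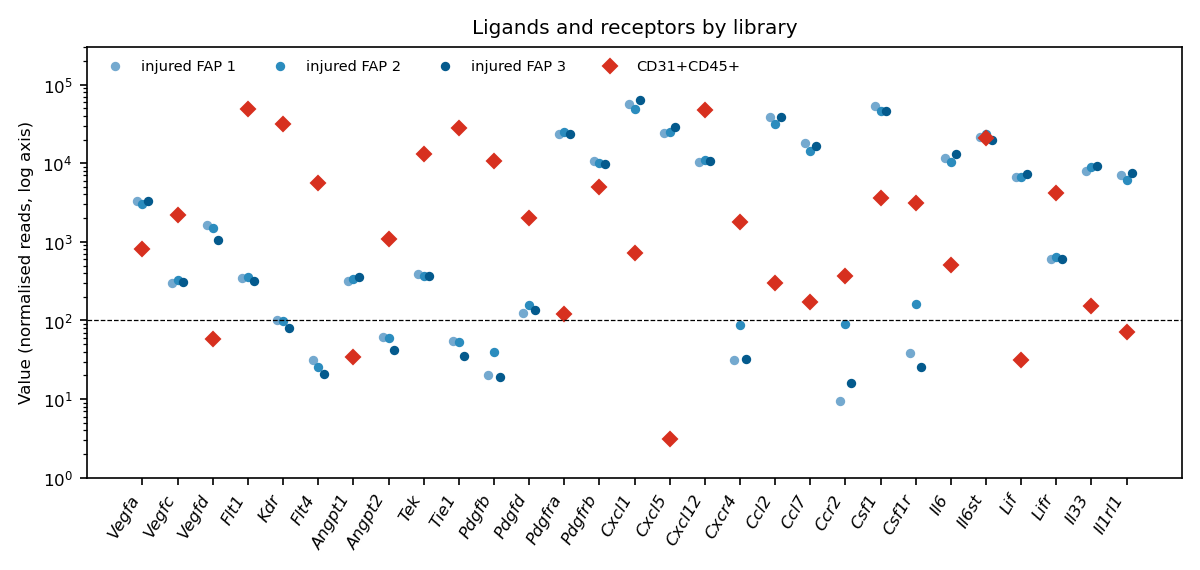
Values of ligand and receptor genes in the 3 injured FAP libraries (blue points) and the CD31+CD45+ library (red diamonds), in normalised reads on a log axis, with a dashed line at the minimum of 100. Cxcl5 stood at 24537 to 28574 in injured FAPs and 3.14 in CD31+CD45+ cells, and Pdgfb at 19.1 to 40.3 and 10553.

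Chemokine genes lay more often on the FAP side than on the CD31+CD45+ side. Of 25 genes 21 were counted, 5 higher and 10 lower, with a median log2 ratio of −1.88, which was −6.30 with a minimum of 1000 and −0.90 with a minimum of 20. Summed, the list reached 196007, 178970 and 198933 in injured FAPs and 58506 in CD31+CD45+ cells. Cxcl1, which acts on CXCR2, had values of 57129.7, 48723 and 62696 in injured FAPs and 711 in CD31+CD45+ cells, 79.03-fold lower. Ccl2, which draws CCR2-positive monocytes, had 39116, 31059.9 and 38199 against 301, 119.9-fold lower, and Ccl7, another ligand of CCR2, had 17797, 14474 and 16595 against 169. Cxcl12, the ligand of CXCR4, was the exception among the abundant genes, with 10312, 11136 and 10579 in injured FAPs and 46926 in CD31+CD45+ cells, 4.40-fold higher and 3.65-fold under TMM scaling, and it held most of the sum of the list there. Cx3cl1, the membrane-bound fractalkine of endothelium, had 719, 666 and 585 against 3277. Ccl3, Ccl4 and Ccl24, chemokines of macrophages and other leukocytes, reached 469, 259 and 212 in CD31+CD45+ cells. Without injured FAP replicate 2 the list had 6 genes higher and 11 lower, with a median of −2.04.

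Chemokine receptors were counted for 8 of 16. Of these 8, 6 reached the minimum on the CD31+CD45+ side only and so could not be lower. Of the receptors counted, 6 were higher and 0 lower, with a median log2 ratio of 3.0. Without injured FAP replicate 2 this median was 4.28 with 7 higher. Cxcr4 had values of 31.4, 86.8 and 32.03 in injured FAPs and 1775 in CD31+CD45+ cells, 35.4-fold higher and 55.98-fold without that library. Ackr1, a chemokine sink of venules, had 239, 212 and 225 against 1486. Ackr3, a scavenger of CXCL12, was abundant in both groups with 7353, 6199.9 and 6454 against 5226 and did not pass the fold.

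Cytokine ligands followed the chemokines. Of 18 genes 14 were counted, 4 higher and 8 lower, with a median log2 ratio of −2.98, which was −3.63 without injured FAP replicate 1. Il6, the cytokine of the acute response, had values of 11522, 10246 and 13258 in injured FAPs and 504 in CD31+CD45+ cells, 23.2-fold lower. Lif, a relative of it that acts on LIFR, had 6727, 6687 and 7254 against 31.4, 219-fold lower. Csf1, the growth factor of macrophages, had 52626, 45563 and 46426 against 3566, and Il33, an alarmin of stromal cells, had 7859.5, 8852 and 9150.3 against 154. The ligands past the fold on the CD31+CD45+ side were Il1b, Tnf, Osm and Il15. Il1b, the interleukin 1 of myeloid cells, had 43.9, 283 and 38.9 against 1103, and Tnf, the tumour necrosis factor, had 18.8, 68.97 and 17.5 against 568. In these genes and in Osm, injured FAP replicate 2 held the highest injured FAP value. Osm, which encodes oncostatin M, had 4.71, 70.5 and 6.86 against 149, and it fell within the fold without injured FAP replicate 1 at 3.85-fold and without replicate 3 at 3.96-fold, while without replicate 2 it was 25.8-fold higher. Without replicate 2 Il1b was 26.6-fold and Tnf 31.2-fold higher.

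Receptors for these cytokines did not mirror the ligands as a list. All 19 were counted, 6 higher and 2 lower, and the median log2 ratio of 0.20 turned negative under TMM scaling. Il6st, the shared signalling chain gp130, had 21657, 23322 and 19600.2 in injured FAPs and 20727 in CD31+CD45+ cells, below 4-fold, and Osmr, the receptor chain for oncostatin M, had 4016, 4362 and 3959 against 4272. Lifr, the partner of gp130 for LIF, had 611, 640.1 and 599 against 4184, 6.78-fold higher. Il1rl1, the receptor for interleukin 33, was instead on the FAP side with 7120.4, 6089 and 7529.5 against 70.6, 97.9-fold lower. Ligand and receptor were therefore on opposite sides for LIF and for CSF1, and on the same side for interleukin 33.

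Adhesion genes for leukocytes were counted for 16 of 17, with 11 higher and 0 lower and a median log2 ratio of 3.86, which was 4.63 without injured FAP replicate 2. F11r, which encodes the junctional adhesion molecule A, had 47.9, 65.1 and 43.5 in injured FAPs and 7709 in CD31+CD45+ cells, and Jam2 had 816, 754 and 866 against 26748. Itgb1, the common β chain of matrix integrins, was at 14553, 14369 and 16267 against 17375, below 4-fold. Junction genes of endothelium were counted for 10 of 13, with 7 higher and 0 lower and a median log2 ratio of 5.13. The minimum was reached on the CD31+CD45+ side only by 4 of the 10, which could not be lower. Tjp1, the tight junction scaffold, had 2434, 2593 and 2397 against 19123, and Ctnnb1, the β-catenin that binds VE-cadherin, had 9577, 9576 and 9580.5 against 28833 without passing the fold.

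Fatty acid uptake genes were higher for 6 of 13 counted and lower for 1, with a median log2 ratio of 1.69, or 4.37 with a minimum of 1000. Pparg, the nuclear receptor that controls Cd36 and Fabp4, had 42.4, 27.9 and 31.3 in injured FAPs and 1447 in CD31+CD45+ cells, 42.8-fold higher. Angptl4, an inhibitor of lipoprotein lipase, was the gene on the lower side with 5202, 6999.7 and 5522 against 345. Of 8 adipocyte genes only Pparg was counted, and Adipoq, the fat cell hormone adiponectin, had 3 reads in the CD31+CD45+ library. With a minimum of 20 the median log2 ratio of the adipocyte list was 3.91, against 5.42 for Pparg alone.

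Haemostasis genes were divided, with 5 higher and 5 lower of 16 counted and a median log2 ratio of −1.24. Plau, the plasminogen activator urokinase, had 26029.8, 20960.3 and 25019 in injured FAPs and 742 in CD31+CD45+ cells, 32.3-fold lower. Thbs1, the platelet and matrix protein thrombospondin 1, had 48504, 39425 and 45542 against 4892. Both genes lay on the FAP side. Entpd1, the ecto-enzyme that clears ADP, had 171, 196 and 182 against 7921, and F8, which encodes factor VIII, had 10.98, 17.05 and 9.15 against 111, both on the side of Vwf. Under TMM scaling F8 no longer reached the minimum of 100.

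Genes of laminar flow and endothelial rest were higher for 9 of 14 and lower for 0, with a median log2 ratio of 3.18. Nos3, the endothelial nitric oxide synthase, had 54.9, 89.9 and 45 in injured FAPs and 13802 in CD31+CD45+ cells, 218-fold higher. Klf2, a transcription factor induced by flow, had 7180.1, 4944 and 4525 against 39207, and injured FAP replicate 1 was the highest of its group. Endothelial and blood transcription factors were higher for 16 of 22 and lower for 0, with a median log2 ratio of 3.92. The minimum was reached on the CD31+CD45+ side only by 10 of the 22, which could not be lower. Ets1, an ETS factor, had 2360.1, 2025 and 2324 against 14886, and Elk3, another, had 2640.2, 2565 and 2524 against 15832. Leukocyte transcription factors were counted for 11 of 16. Of these 11, 7 reached the minimum on the CD31+CD45+ side only and so could not be lower. The genes counted held 5 higher and 1 lower, with a median log2 ratio of 1.17. This median depended on the settings, at 1.82 under TMM scaling, 3.02 with a minimum of 20 and −1.56 with a minimum of 1000. The sum of the list went the other way from its median, at 6424, 6231 and 5867 in injured FAPs and 5289 in CD31+CD45+ cells. The 1 lower gene was Runx1, a factor of blood formation that injured FAPs held at 4586, 4297 and 4156 against 304. Mesenchymal factors were counted for 18 of 20, with 1 higher and 11 lower and a median log2 ratio of −3.16. The minimum was reached in injured FAPs only by 8 of the 18, which could not be higher. Prrx1, a marker of limb mesenchyme, had 9231, 8668 and 9207 against 697, and Snai2, the factor Slug, was the exception with 269.9, 261 and 256 against 1230.4, within the fold under TMM scaling at 3.90-fold.

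**Figure D5:**
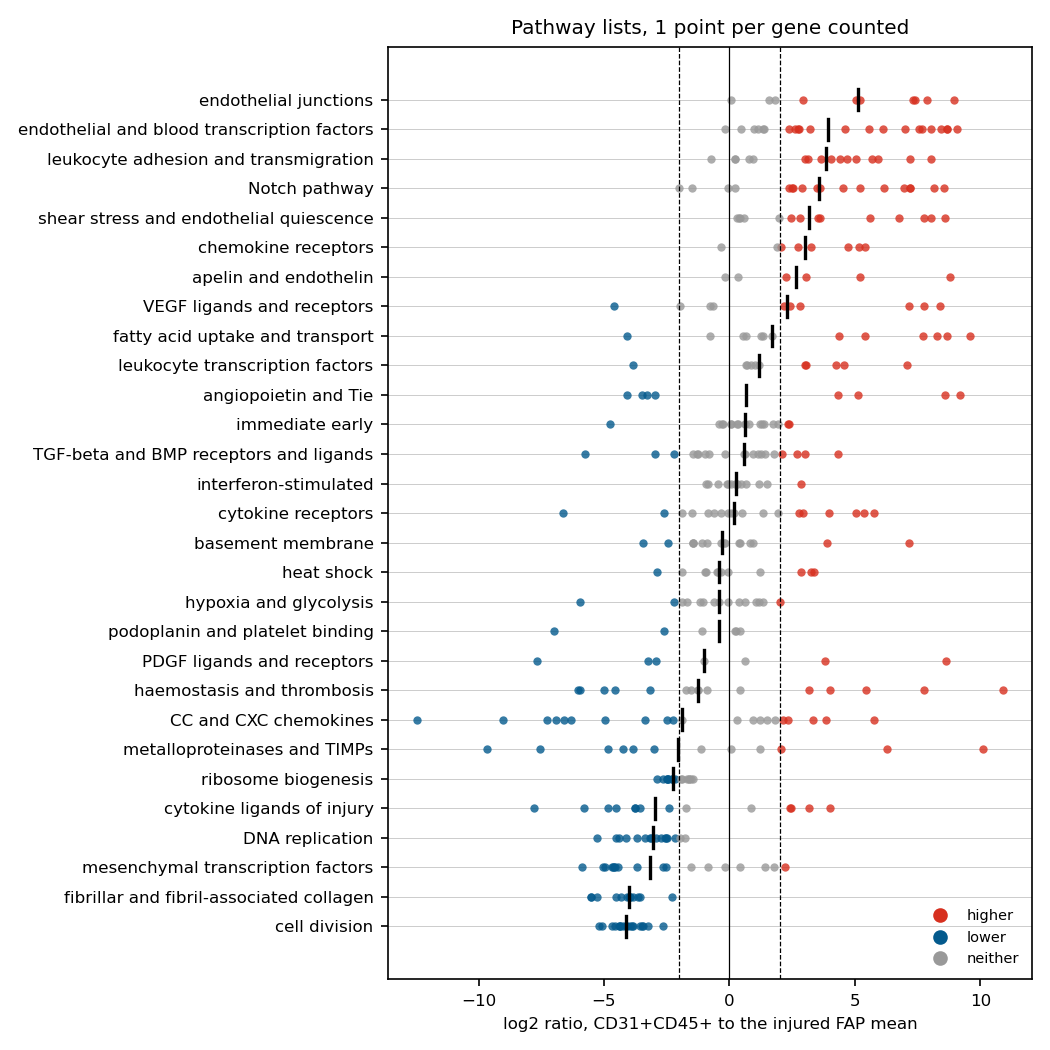
Log2 ratio of the CD31+CD45+ library to the injured FAP mean for each gene counted in the pathway lists, with a black bar at the list median and dashed lines at 4-fold, colours marking genes higher, lower or neither. Endothelial junction genes had the highest median at 5.13 and cell division genes the lowest at −4.11.

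Cell division genes were low in CD31+CD45+ cells without exception in the list. All 18 were counted and 18 were lower, with a median log2 ratio of −4.11. Their medians were 1018, 1133 and 1053 in injured FAPs and 78.5 in CD31+CD45+ cells. Mki67, the marker of cycling cells, had values of 9381, 10089.5 and 9774 against 568, 17.2-fold lower. Top2a, the topoisomerase of dividing cells, had 6352, 6840.0 and 7029 against 198, 34.1-fold lower. DNA replication genes were lower for 14 of 16, with a median log2 ratio of −3.03. Mcm6 of the replicative helicase had 5577, 5325 and 5765 against 849, while Pcna, the sliding clamp, had 5925, 5221 and 6183 against 1682 and passed the fold under TMM scaling only, at 4.13-fold. Ribosome biogenesis genes were lower for 9 of 16, with a median log2 ratio of −2.23, and Ncl, which encodes nucleolin, had 18726, 20275 and 22088 against 3296. The order of the 3 lists was therefore cell division, DNA replication and ribosome biogenesis by the size of the difference.

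Immediate early genes were higher for 2 of 18 and lower for 1, beside the 24.8% of all genes counted, with a median log2 ratio of 0.64, and Fos, a subunit of AP-1, had 34384, 36252 and 27269 in injured FAPs and 50869.7 in CD31+CD45+ cells. Fosl1, another AP-1 subunit, was the gene that was lower, with 3442, 3066 and 3077 against 119. Hypoxia and glycolysis genes were counted for 15 of 16, with 1 higher and 2 lower, also near the 24.8%, and a median log2 ratio of −0.43. The lower genes, named after their values were seen, were Hk2, a hexokinase, at 5718, 5089 and 5423 against 86.3, and Pgk1, a phosphoglycerate kinase, at 4130.2, 4207 and 4772 against 951. The higher gene was Ndrg1, a stress response gene, at 3362, 2746 and 3310.2 against 12656, 4.03-fold higher, and it fell within the fold without injured FAP replicate 2 at 3.79-fold, under the common 75th percentile at 3.83-fold and under TMM scaling at 3.35-fold. Podoplanin and platelet binding genes were counted for 6 of 9, with 2 lower beside the 24.8% of all genes past the fold, Pdpn and Cd44, the hyaluronan receptor at 18562, 17015 and 20073 against 3074, and a median log2 ratio of −0.43. Genes used in every cell were lower for 1 of 14 and higher for 0, with a median log2 ratio of −0.61, and Actb, which encodes β-actin, had 49363, 47921 and 44494 against 65291.

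Transcripts of other cells of muscle were also in the CD31+CD45+ library. Pericyte and smooth muscle genes were higher for 10 of 13 and lower for 0, with a median log2 ratio of 3.41, or 2.71 under TMM scaling, and none was at 0. The list summed to 23226, 22251 and 22130.2 in injured FAPs and 107225 in CD31+CD45+ cells. Rgs5, a regulator of G protein signals in pericytes, was its most abundant gene there, with 1718, 2018 and 2091 in injured FAPs and 40800.3 in CD31+CD45+ cells, and Acta2, the smooth muscle actin, had 1399.8, 1441 and 1325 against 19236. Per kilobase of exon the list median in CD31+CD45+ cells was 755, above that of the pan-leukocyte list and below that of the pan-endothelial list. The part of mural cell RNA in the values of genes such as Notch3 and Pdgfrb was not tested.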

How the data were processed

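Libraries were grouped by their labels, 3 of injured FAPs and 1 of CD31+CD45+ cells. Per the submitters' processing notes, the authors used fastq_illumina_filter 0.1 and FastQC 0.11.9 for read filtering and quality, HISAT2 2.2.1 for alignment to mm10, featureCounts (Subread 2.0.1) for gene counts and DESeq2 1.34.0. The authors deposited the signal as normalised read counts, and how it was scaled and which strand setting was used are not stated. The table lists 26214 genes and has 2 empty columns and 0 unused columns of single samples. Within a tolerance of 0.02 reads, 100% of the values of each library came out as whole reads times a constant, which gave 13091077 reads for CD31+CD45+ cells and 26968235, 26698572 and 27028114 for injured FAPs. A floor of 3 reads was worth 4.71 in CD31+CD45+ cells and 2.29 to 2.35 in injured FAPs.

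The ratio of the CD31+CD45+ value to the injured FAP mean was taken with each value raised to the floor. A gene was past the fold at a ratio of 4 in either direction, a value of at least 100 on 1 side and a CD31+CD45+ value outside the injured FAP range. Intervals are exact 95% Poisson intervals. Ratios with an interval are given without the floor too where it changes them. The comparison is a description, since the CD31+CD45+ group has 1 library, and a count test was run only as an alternative. The 52 gene lists (21 of cell identity, 29 of pathways and 2 of controls) held 654 genes of the table, and Ighm and Ighd were not in it. Exon lengths came from GENCODE M21 (GRCm38), which matched 24870 genes. Members and lists were chosen with earlier results of these data known. Genes named in the text are the sorting markers and the endothelial markers of the rule, the 15 largest ratios and the 5 largest values in each direction, the 4 largest members of each list and members that run against their list by the fold, the ligand and receptor genes, and the genes at the edges of the fold and of the minimum. Others are said to have been named after their values were seen. Some genes that the rule names are not reported here by themselves, though counts and medians of whole lists include them.

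Python 3.11.15 with numpy 2.4.6, pandas 2.3.3, scipy 1.17.1 and matplotlib 3.10.9 was used, with edgeR 4.0.16 in R 4.3.3 for TMM factors and a count test. The steps were tested on simulated data. Alternatives were a minimum of 20 or 1000, folds of 2 and 10, scaling to equal read totals, a common 75th percentile, TMM factors, the median of the injured FAP libraries, each injured FAP library left out, a floor of 1 read, no condition on the range, the sum in place of the median of a list, a promoter window of 150 bases and the edgeR count test, which was chosen after seeing the data. Csf2rb and Csf2rb2, and Hspa1a and Hspa1b, are near-identical pairs whose reads may be shared.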

Additional observations from a re-analysis of the deposited data

How the results depend on the processing

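No paired analysis was possible because the CD31+CD45+ group has 1 library, so a replicate number cannot be matched between the groups. Counts past the fold moved by over 1.5 times with a minimum of 1000 and with other folds. Under the edgeR count test given below, the count of genes lower also moved by over 1.5 times, and the total did not. With a minimum of 1000 the total was 1385 genes (749 higher, 636 lower), at 2-fold it was 5580 (2873 higher, 2707 lower) and at 10-fold it was 1520 (913 higher, 607 lower). The looser minimum of 20 gave 3885 (2266 higher, 1619 lower), which is less than 1.5 times the counts reported. An edgeR count test on the recovered reads, chosen after seeing the data, tested 15546 genes with 5 residual degrees of freedom, with the lone library assumed to vary like the other groups. At an adjusted p under 0.05 and past 4-fold it gave 2186 genes higher and 2086 lower, and without the fold 4450 and 5603. It had no minimum of 100, and the cause of the larger count was not tested. Leaving out each injured FAP library in turn gave 1582 to 1601 genes higher and 1291 to 1312 lower. TMM scaling kept 86.0% of the genes higher and 100% of those lower, and genes higher made up 46.7% of the genes past the fold, against 55.2% in the values reported. Under a minimum of 1000 the medians of the satellite cell, PDGF and leukocyte transcription factor lists changed sign, with fewer genes counted. In all, 16 of 47 list medians moved by over 1.5 times there, taken as ratios and not as log2 values. Among others, the log2 medians there were 6.26 for lymphatic, 2.53 for pericyte, 4.40 for Schwann cell, 4.11 for apelin and endothelin and −4.15 for cytokine ligand genes. They were 2.30 for leukocyte adhesion, −2.99 for metalloproteinase, 4.61 for endothelial transcription factor, −1.18 for podoplanin and −1.49 for sorting marker genes. With a minimum of 20, 11 of 51 list medians moved by as much. Among them, in log2, were monocyte and macrophage genes at 3.15, B cell genes at 4.52, Schwann cell genes at 2.31 and cytokine ligands at −2.06. Metalloproteinases and TIMPs were another, and their median came inside the fold at −0.54. TMM scaling moved 2 medians by as much, and leaving out injured FAP replicates 1, 2 and 3 moved 1, 7 and 0. Taking the median of the injured FAP libraries in place of their mean moved 7. By the sum of a cell identity list in place of its median, injured FAPs held 208.7% of the CD31+CD45+ level for lymphatic endothelial genes, where Pdpn is the most abundant gene, and 149.1% for satellite cell genes, where Sdc4 is. By the median these levels were 2.37% and 8.71%. Depth limits low genes most in the CD31+CD45+ library, which held 48.7% of the mean reads of injured FAPs.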

Other observations

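Transcripts of muscle fibres, satellite cells, Schwann cells and tendon were measured beside those of the report. Skeletal muscle fibre genes were counted for 10 of 12 and all 10 were higher in CD31+CD45+ cells, with a median log2 ratio of 3.92. Among the libraries compared here, they reached the minimum of 100 in the CD31+CD45+ library only and so could not be lower. The list summed to 346, 370.4 and 284 in injured FAPs and 4635 in CD31+CD45+ cells, and Acta1, the actin of the sarcomere, had 92.6, 89.9 and 69.4 against 1469. Schwann cell genes were counted for 7 of 10 and 5 were higher, with a median log2 ratio of 3.55 and sums of 7328, 6251 and 6575 in injured FAPs and 17202 in CD31+CD45+ cells. Satellite cell genes were counted for 4 of 8, with 2 higher and 1 lower and a median log2 ratio of 1.53, which was −0.26 with a minimum of 1000 and 2.82 with a minimum of 20. Pax7, the defining factor of these muscle stem cells, had 11.8, 10.8 and 5.34 against 289, while Sdc4, a syndecan that injured FAPs carry as well, had 5695, 5082 and 5328 against 681. Tendon-type genes were lower for 5 of 8 and higher for 0, with a median log2 ratio of −2.17, and Thbs4, the thrombospondin of tendon and muscle, had 144210, 145137 and 139813 against 6177. None of the muscle fibre, Schwann cell, satellite cell or tendon-type genes was at 0 in the CD31+CD45+ library. The part of these cells in other values of that library was not tested.

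Heat shock genes were higher for 3 of 12 and lower for 1, beside 24.8% of all genes counted past the fold, with a median log2 ratio of −0.41. Hspa1b, which encodes an inducible HSP70 and shares its sequence with Hspa1a, had values of 8771, 6852 and 14576 in injured FAPs and 73404 in CD31+CD45+ cells, 7.29-fold higher. Hspb1, a small heat shock protein, had 3277, 2726 and 3424 against 32189, while Hspa8, the constitutive HSC70, had 73842, 65677 and 75982 against 69416. Interferon-stimulated genes were counted for 14 of 15, with 1 higher and 0 lower, and their median log2 ratio of 0.26 turned negative under TMM scaling. Irf7, a regulator of the response, had 3372, 2106 and 2839.6 against 2916, and Gbp2, a guanylate-binding protein, had 1444, 1241 and 1499 against 3917.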
